A study of Drosophila melanogaster with 3 samples.

Results

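The JAK/STAT pathway genes examined here were the 7 Drosophila melanogaster genes upd1, upd2, upd3, dome, hop, Stat92E and Socs36E, taken by name as the ligands, receptor, kinase, transcription factor and feedback inhibitor of the pathway. They are 7 of 13945 protein-coding genes on the 6 main chromosome arms of dm6. Every peak whose summit lay in the body of a gene or within 5 kb upstream of it was taken, and these stretches held 8 of the 4524 peaks of the authors' reproducible set. They held 28 of 20696 peaks in the list called on all replicates pooled, and 23, 46 and 24 in the lists of replicates 1 to 3. The pooled list and the replicate lists all include background regions. Reproducible peaks lay at 2 of the 7 genes: Stat92E and Socs36E had 4 each, while upd1, upd2, upd3, dome and hop had none.

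The peaks come from chromatin immunoprecipitation with sequencing (ChIP-seq) of E(spl)mγ-HLH, a basic helix-loop-helix repressor of the Hairy/E(spl) family whose gene is a target of Notch. The embryos belonged to a stable transgenic line, Esplmgamma-HLH-GFP, in which the protein carries GFP (eGFP in the sample descriptions) at its C terminus, and an antibody to GFP pulled down the chromatin. There were 3 biological replicates of this 1 group, each of whole embryos aged 0 to 16 hours with both sexes mixed. A peak can therefore come from any tissue or stage in that span, the tagged protein was expressed from a transgene, and the control listed by the authors was not analysed here.

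JAK/STAT signalling in the fly begins with secreted cytokines of the Unpaired family, which bind the receptor Domeless. The receptor carries the Janus kinase Hopscotch, whose activity leads to phosphorylation of Stat92E, which then enters the nucleus and binds TTC...GAA palindromes. In the embryo the pathway is known for its part in segmentation, tracheal and hindgut patterning and germ cell migration.

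Sequence at the summits of the strongest and the motif-holding peaks is given first, because the positions and motifs described afterwards refer to it. These are windows of the summit and 50 bases on each side, read from the plus strand of the RefSeq dm6 genome, while both genes are transcribed from the minus strand. Capitals mark letters of a searched motif: GAGAG, the core of a GAGA factor site, in the window of the Socs36E peak at 1642 bp, and GTGGGAA, a core of the site of Su(H), the DNA-binding protein of Notch signalling, with CTTGTG in that of the peak at 1094 bp. The distances are those of the summit from the gene start. CTTGTG is CACNAG, the N box known for Hairy/E(spl) proteins, read on the other strand.
Stat92E peak at 2156 bp, chr3R:20550105-20550205: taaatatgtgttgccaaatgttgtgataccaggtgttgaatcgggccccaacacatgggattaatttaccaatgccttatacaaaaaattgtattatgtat
Stat92E peak at -4101 bp, chr3R:20556362-20556462: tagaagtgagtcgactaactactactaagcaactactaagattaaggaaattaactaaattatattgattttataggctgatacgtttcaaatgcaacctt
Socs36E peak at 6932 bp, chr2L:18145435-18145535: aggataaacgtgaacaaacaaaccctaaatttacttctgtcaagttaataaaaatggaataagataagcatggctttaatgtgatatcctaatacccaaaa
Socs36E peak at 1642 bp, chr2L:18150725-18150825: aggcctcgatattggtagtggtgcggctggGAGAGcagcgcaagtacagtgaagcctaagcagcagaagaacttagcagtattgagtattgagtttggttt
Socs36E peak at 1094 bp, chr2L:18151273-18151373: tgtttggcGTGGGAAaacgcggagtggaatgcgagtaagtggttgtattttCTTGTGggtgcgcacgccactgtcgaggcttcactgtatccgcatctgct

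Reproducible peaks lay at the transcription factor and inhibitor genes and not at the ligand, receptor or kinase genes. Of the 7 genes, 2 (28.6%) had a reproducible peak, against 37.0% of all protein-coding genes. Of the 5 genes on the X chromosome, none did, against 38.1% of X-linked genes, and both genes on other arms did, against 36.8% of genes there. Longer stretches hold more peaks, so each gene was also set beside genes of similar length, counted as gene body plus 5 kb upstream. Neither upd1 nor upd2 had a peak in the class under 10 kb, where 31.6% of genes did. The class of 10 to 15 kb held upd3, dome and hop, again none with a peak, against 48.1% of its genes. Stat92E and Socs36E fell in the class of 15 to 25 kb, where 54.1% of genes had a peak. Both had 4, and 4 or more were found for 2 of the 7 genes against 1.89% of all genes, and for 2 of the 2 in that length class against 6.22% of the class. This cutoff equals the count of these same genes, so their passing it is not a separate result. At Stat92E, 2 of the 4 lay upstream of the gene, inside a neighbouring gene. With so few genes these counts describe the members and were not tested.

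The number of genes with a peak varied between replicates. A peak with a q-value, the false discovery measure of the peak caller, below 0.05 lay at 2 of the 7 genes in replicate 1 (41.5% of all genes), at 6 for replicate 2 (60.0%) and at 4 for replicate 3 (47.4%). Stat92E and Socs36E were the members with one in all 3 replicates, which 38.1% of all genes had. In the list called on the 3 replicates pooled, dome and hop joined them, so 4 of 7 genes had a peak of q below 0.05, against 51.4% of all genes. Replicate 2 had the longest list, 30000 peaks against 23367 in replicate 1 and 24251 in replicate 3, and it was also the replicate in which upd1 and upd2 passed this threshold. Its round length may be a limit set in peak calling. The number of reads behind each list is unknown.

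Ranking each gene by its highest listed peak put Socs36E and Stat92E apart from the others. These 2 genes also have the longest stretches, 18743 and 21989 bp against 7631 to 12458 bp for the other members. A longer stretch can hold more peaks, and the shares below are over genes of all lengths. Length and peak strength therefore cannot be told apart in this ranking. The share of protein-coding genes with a higher best peak was 14.6, 6.22 and 13.0% for Socs36E in replicates 1 to 3, a mean of 11.3% ± 4.43 (SD, n = 3). For Stat92E it was 16.9, 16.4 and 10.5% (mean 14.6% ± 3.60, n = 3), but each replicate's best peak was a different site. It lay at -4086 bp in replicate 1, in an intron of the neighbouring gene DPCoAC, at 1574 bp in replicate 2 and at 2167 bp in replicate 3. The ranges of these 2 genes overlapped, so their order is not resolved, and in each replicate both had a stronger best peak than every other member. For dome the values were 50.3, 57.2 and 37.4% (48.3% ± 10.1), for hop 53.2, 57.3 and 46.4% (52.3% ± 5.51), and for upd3 49.3, 61.4 and 51.6% (54.1% ± 6.41, n = 3 each). For upd2 they were 65.2, 59.7 and 64.6% (63.1% ± 3.02, n = 3). These 4 genes followed each other with overlapping ranges. Replicate by replicate, dome had a stronger best peak than hop in all 3, by a margin in replicate 2 of 57.2 against 57.3%. The order of hop and upd3, and of upd3 and upd2, changed between replicates. The best peak was not 1 site for dome (-189, 309 and -10 bp), upd3 (-685, 5429 and -467 bp) or upd2 (-3666, -3659 and -2396 bp). Some of these peaks were weak calls, with q = 0.248 for dome, 0.329 for hop and 0.679 for upd2 in replicate 1. The hop peak lay in an intron of dlg1. For upd1 replicate 2 alone listed a peak, at 50.7%.

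**Figure D1:**
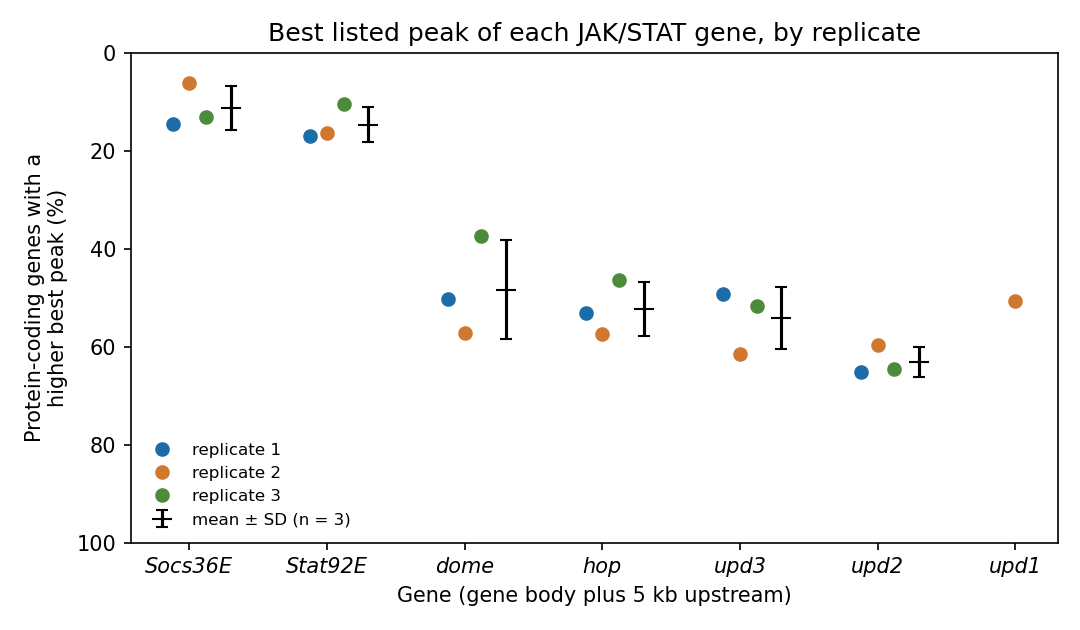
Share of 13945 protein-coding genes with a higher best peak (y axis, percent, inverted so that stronger binding is at the top) for each of the 7 genes, with a point per replicate and bars for the mean ± SD of 3 replicates. Socs36E and Stat92E lie between 6.22 and 16.9%, the other genes between 37.4 and 65.2%, and upd1 has a point in replicate 2 only. The shares are over genes of all lengths, and Socs36E and Stat92E have the longest stretches of the 7 genes.

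The ligand genes upd1, upd2 and upd3 encode the Unpaired cytokines and stand together on the X chromosome. The upd1 gene (FBgn0004956), which encodes the founding ligand used in embryonic segmentation, spans X:18305354-18309291 on the minus strand. Replicates 1 and 3 listed no peak there, background regions included. Signal below is the authors' value for a peak, which was not put on a common scale between lists, so ranks are given within a list. Replicate 2 listed 2 peaks, at -3485 bp from the gene start (signal 26.6, rank 8617 of 30000, q = 0.00238) and at -4258 bp (q = 0.171). Negative distances are upstream. No pooled peak lay at upd1.

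The upd2 gene (FBgn0030904, X:18240654-18243284, minus strand) encodes a ligand also known as a fat body signal of nutrient state. The pooled list held 1 peak for it, at -3657 bp, with signal 55.9, rank 10252 of 20696 and q = 0.193. Replicates 1 and 2 listed that site with q = 0.679 and q = 0.047, and replicate 3 did not. The upd3 gene (FBgn0053542, X:18277233-18284596, plus strand) encodes a ligand known for its induction by infection and wounding. It had 4 pooled peaks, the highest at -659 bp with signal 51.8, rank 11256 and q = 0.297. None of the 4 listed upd3 peaks of the replicates had a q below 0.05: replicate 1 had 0.227 and replicate 2 had 0.0739, while 0.134 was the lower value of replicate 3.

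The whole stretch of 68.6 kb from upd2 to the 5′ end of upd1 held 1 reproducible peak, in the intergenic DNA between upd3 and upd1. Its summit lay 17047 bp from the start of upd3, beyond that gene's 3′ end, and ranked 2776 of 4524. Its signal relative to the median reproducible peak of the same replicate was 0.869, 0.887 and 0.769 in replicates 1 to 3 (0.842 ± 0.0636, n = 3). The closest transcription start site there was that of the noncoding gene lncRNA:CR15061, 1900 bp away. The closest protein-coding start was that of upd1, at a distance of 13979 bp. Another reproducible peak lay just outside the cluster, 3756 bp from the start of upd2 and past its 3′ end (rank 3513, relative signal 0.714 ± 0.0777, n = 3). The upd2 start was the closest annotated start to that peak. The reproducible peak nearest to upd1 was -10947 bp away, in an intron of CG6023 (rank 4205). All 3 of these peaks had a q below 0.05 in every replicate, and all lay outside the stretches counted for the ligand genes.

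The receptor gene dome (FBgn0043903, X:19676061-19683518, minus strand) had its highest pooled peak at the promoter, -13 bp from the start. Its pooled signal was 83.1, rank 6523 and q = 0.00422, below the lowest signal of the reproducible set, 114. Replicate 3 listed a peak there with signal 35.2 and q = 0.0012, and replicate 2 a peak with signal 21.3 and q = 0.0246. In replicate 1 the peak that overlapped the position was centred 176 bp further upstream and had a q of 0.248. A second pooled peak at -214 bp (q = 0.292) was closer to the start of Ubqn, a ubiquilin gene that is read away from dome, at -76 bp. The summit at -13 bp also lay in the 5 kb upstream of Ubqn. The nearest reproducible peak was a strong one at -9870 bp, in the promoter of Mer, the fly Merlin gene (rank 822, relative signal 1.78 ± 0.341, n = 3).

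The kinase gene hop (FBgn0004864, X:11360930-11368098, minus strand) had its highest pooled peak at -2961 bp, in an intron of dlg1, a cell polarity scaffold gene. The pooled signal was 74.5, with rank 7397 and q = 0.0141. Replicates 1, 2 and 3 listed this site with signals of 26.1, 21.5 and 25.3 and with q = 0.329, 0.0232 and 0.0356. Relative signal was 0.377, 0.310 and 0.413 (0.367 ± 0.0524, n = 3), so the site stood at less than the level of a median reproducible peak in all 3 replicates. Replicate 2 also had a peak of q = 0.0291 at -4929 bp, near the start of dlg1. The nearest reproducible peak, rank 1448, was -16226 bp away in dlg1.

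**Figure D2:**
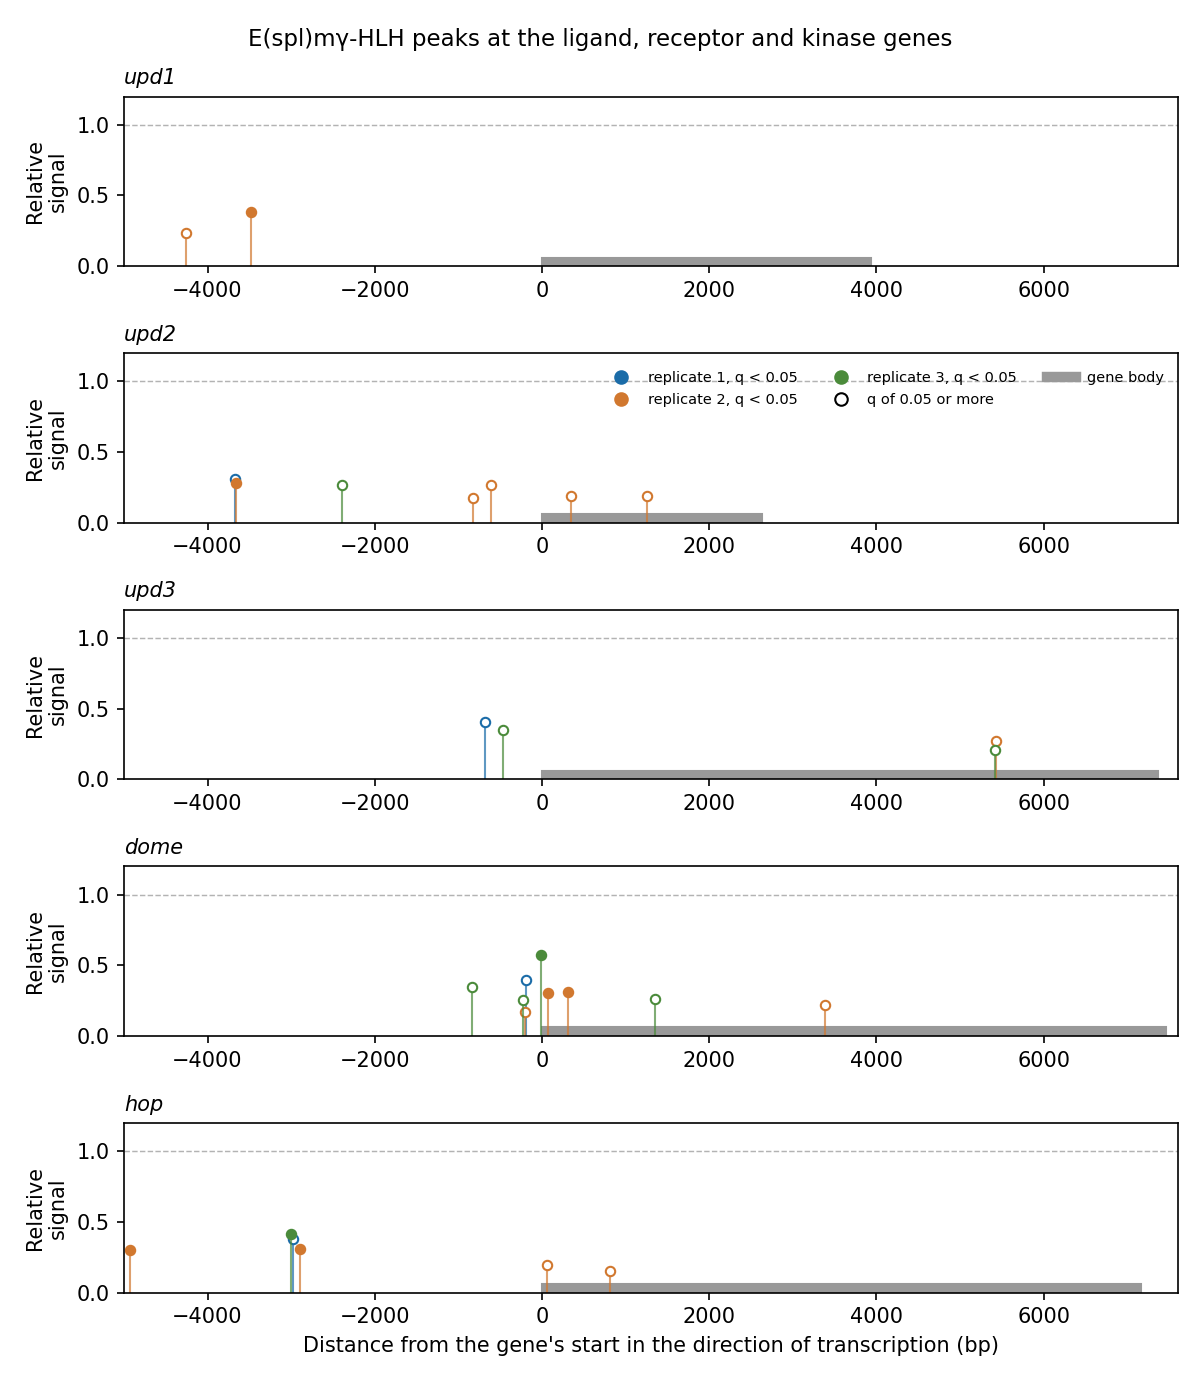
Summits listed in each replicate at upd1, upd2, upd3, dome and hop, by distance from the gene start in the direction of transcription (x axis, bp) and by signal relative to the median reproducible peak of that replicate (y axis, dashed line at 1). Filled points have q below 0.05; no point reaches 0.6 and none of these genes has a filled point in all 3 replicates.

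The transcription factor gene Stat92E (FBgn0016917, 3R:20535323-20552311, minus strand) encodes the STAT of the fly and has 2 annotated start sites, the gene start and an inner one. It held 4 reproducible peaks over 6257 bp, 2 inside the gene near the inner start and 2 upstream. The highest pooled one, 3R:20550073-20550230, had its summit in an intron 2156 bp from the gene start and 952 bp from the inner start, with pooled signal 269 and rank 1403 of 4524. Its signals in replicates 1, 2 and 3 were 88.9, 69.3 and 116, at ranks 1541, 2262 and 813. On the relative scale these were 1.28, 0.998 and 1.89 (1.39 ± 0.458, n = 3), and the replicate summits varied by 14.5 bp (SD).

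The second of these, 3R:20550546-20550929, lay 583 bp from it and 369 bp from the inner start, in an exon of Stat92E, and ranked 3128. Its replicate signals were 36.8, 89.0 and 18.6, with q = 0.0272, 6.69e-05 and 0.325. Relative signal was 0.531, 1.28 and 0.304 (0.705 ± 0.512, n = 3), so replicate 2 stood well above the other two and replicate 3 did not pass the threshold. Replicate 2 also listed peaks at 1365 bp (q = 6.69e-05) and at the gene start itself (-3 bp, q = 0.00084), which neither of the other replicates listed with a q below 0.05. In replicate 2 a q of 6.69e-05 was given alike to member peaks of ranks 501 and 7443, so this value does not separate strong peaks from weaker ones.

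Both upstream peaks lay inside introns of the neighbouring gene DPCoAC, which encodes a mitochondrial carrier of dephospho-coenzyme A. The farther one, 3R:20556220-20556603, at -4101 bp, was the steadiest peak at Stat92E. Its signals were 92.6, 77.8 and 80.1, at ranks 1419, 1869 and 1522, and its relative signal was 1.34, 1.12 and 1.31 (1.25 ± 0.117, n = 3). The nearer one, 3R:20554966-20555349, at -2847 bp, was weaker, with signals of 49.0, 53.6 and 28.7 and relative signal 0.650 ± 0.160 (n = 3), below the farther peak in every replicate. For both, the nearest protein-coding start was that of DPCoAC, at -749 bp for the nearer peak and 1242 bp for the farther one. The nearer summit also lay in the body or 5 kb upstream stretch of 3 other genes, CG5180, DPCoAC and att-ORFB, and the farther one in that of 4, with CG5191 added, so their assignment to Stat92E rests on distance alone. In the pooled list Stat92E had 2 further intron peaks with q below 0.05, at 3167 bp (q = 0.0402) and 4924 bp (q = 0.0128), which fell outside the reproducible set. The one at 3167 bp passed in replicate 2 only (q = 0.368, 0.00533 and 0.545 in replicates 1 to 3). The one at 4924 bp passed in replicates 2 and 3 (q = 6.69e-05 and 0.00445) and was not listed in replicate 1.

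Socs36E (FBgn0041184, 2L:18138675-18152417, minus strand) encodes a suppressor of cytokine signalling that is itself a known target of Stat92E and dampens the pathway. It held 4 reproducible peaks over 9731 bp, all within the gene body. The highest, 2L:18145376-18145578, had its summit 6932 bp from the gene start, with pooled signal 357 and rank 839, which places it 18.5% from the top of the reproducible set. Its signals in replicates 1, 2 and 3 were 103, 159 and 102, at ranks 1181, 501 and 1036. Relative signal was 1.49, 2.29 and 1.66 (1.81 ± 0.420, n = 3). No peak at the 7 genes was higher in replicates 1 and 2, while in replicate 3 the Stat92E intron peak was, at 1.89. The summit lay in an exon of the noncoding gene lncRNA:CR44478, which sits in a Socs36E intron, 387 bp from its start, and no other protein-coding gene's body or upstream stretch held it.

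The peak at 10825 bp, 2L:18141400-18141783, had almost the same strength in every replicate. Its signals were 66.9, 67.0 and 57.7, at ranks 2353, 2389 and 2452, and its relative signal was 0.957 ± 0.0135 (n = 3). It was closer to the start of kel, which encodes the ring canal protein Kelch, at -3509 bp, than to that of Socs36E. The peak nearest to the Socs36E start, 2L:18151262-18151357, lay 1094 bp into the gene, in an intron. It had signals of 58.6, 72.2 and 66.5, at ranks 2819, 2120 and 2006, and relative signal 0.990 ± 0.127 (n = 3). The relative signals of these 2 peaks overlapped in range, and both lay below that of the highest peak in every replicate.

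The remaining Socs36E peak, 2L:18150583-18150966, at 1642 bp, passed the threshold in replicates 1 and 3 and not in replicate 2. Its signals were 60.5, 18.7 and 36.4, at ranks 2708, 13761 and 4387, and its relative signal was 0.579 ± 0.302 (n = 3). Its q was 0.0726 in replicate 2, where a stronger peak of signal 49.2 and rank 3752 was listed beside it, with its summit at 1845 bp. The pooled list held 2 more Socs36E peaks of q below 0.05 outside the reproducible set, a promoter peak at -77 bp (signal 102, rank 5182) and an intron peak at 3360 bp (signal 98.1, rank 5416). The summits at 1094 and 1642 bp also lay within 5 kb upstream of, or inside, CG15155 and CG17681, and the one at 1094 bp in the same stretch of CG5783. The summit at -77 bp lay in the stretches of CG15155, CG17681 and CG5783, and the one at 3360 bp in that of CG17681. The promoter peak passed q below 0.05 in replicates 1 and 2 (q = 0.0129 and 6.69e-05) and not in replicate 3 (q = 0.123). The intron peak at 3360 bp passed in replicate 2 only (q = 0.0928, 6.69e-05 and 0.128 in replicates 1 to 3).

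**Figure D3:**
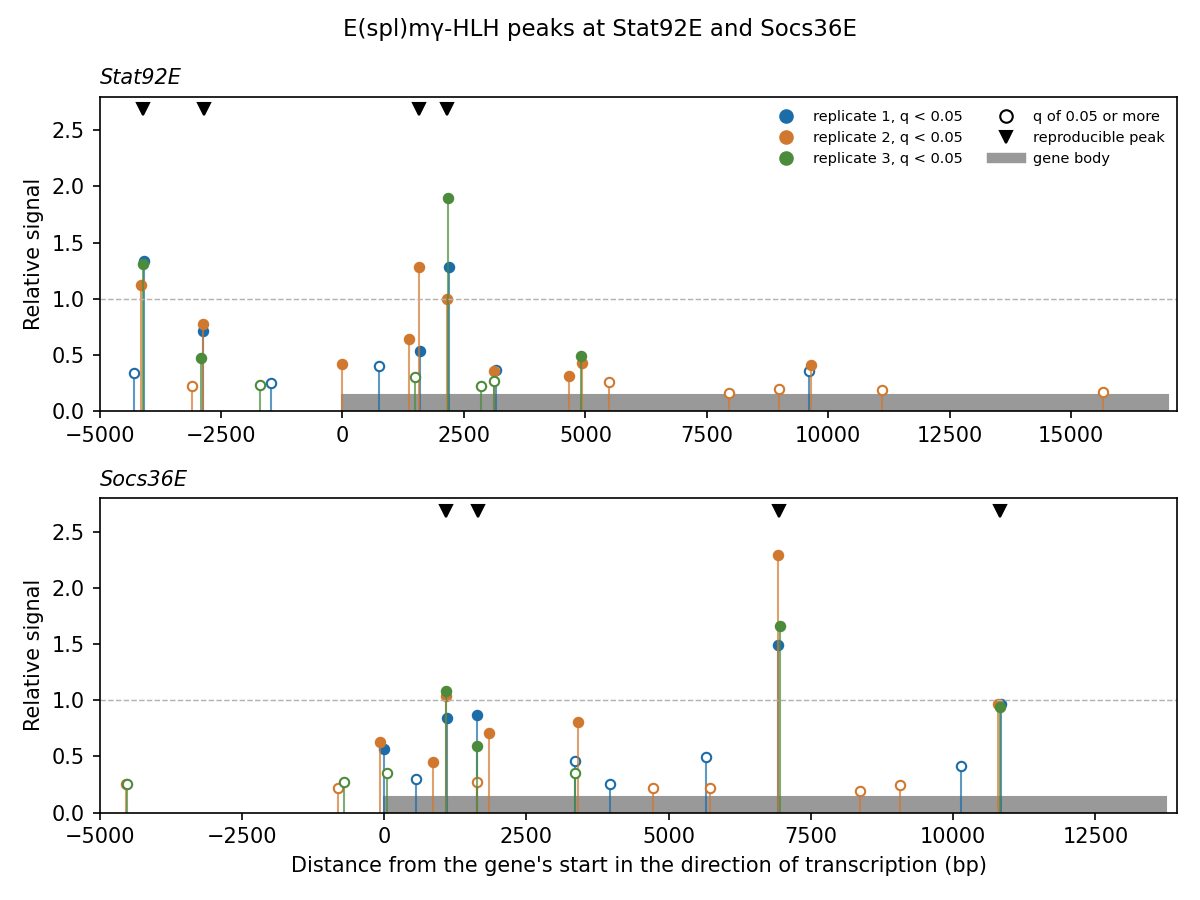
Summits listed in each replicate at Stat92E and Socs36E, by distance from the gene start in the direction of transcription (x axis, bp) and by signal relative to the median reproducible peak of that replicate (y axis, dashed line at 1). Triangles mark the 4 reproducible peaks of each gene, which lie on both sides of the Stat92E start and only downstream of the Socs36E start.

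Most of the 8 reproducible peaks were listed with support from every replicate. A q below 0.05 in all 3 replicates was found for 6 of 8, against 87.0% of all reproducible peaks, and the remaining 2 passed in 2 replicates. A place among the 4524 peaks of highest signal in all 3 replicates was found for 5 of 8, against 66.8%. The reproducible set was identical to the 4524 pooled peaks of highest signal: its lowest signal was 114.425, and the highest outside it was 114.412. A peak could therefore enter it on pooled signal alone, and the Stat92E exon peak and the Socs36E peak at 1642 bp each had a replicate that did not pass, at q = 0.325 and q = 0.0726. The median pooled rank of the 8 was 2477.

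**Figure D4:**
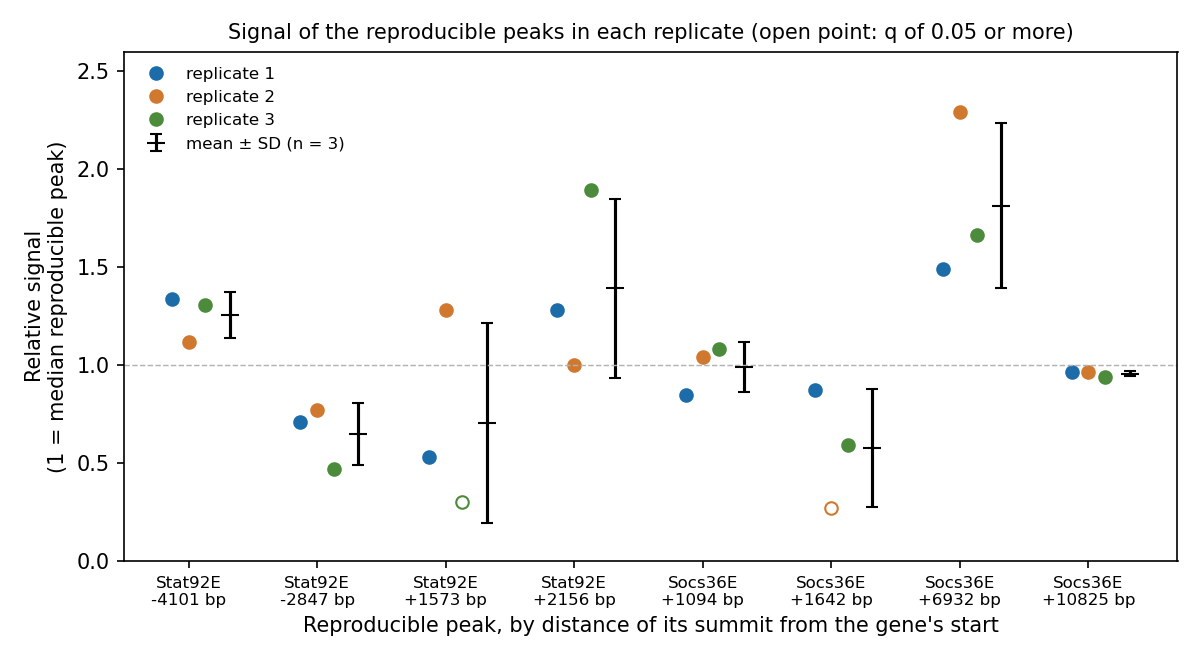
Signal of each of the 8 reproducible peaks relative to the median reproducible peak of that replicate (y axis) with a point per replicate and bars for the mean ± SD of 3 replicates; open points have q of 0.05 or more. The Socs36E peak at 6932 bp has the highest mean, 1.81, and the widest spread is that of the Stat92E peak at 1573 bp, from 0.304 to 1.28.

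By position, 6 of the 8 summits were intronic and 2 lay within 500 bp of an annotated start. Of all reproducible summits 35.6% were intronic, 50.1% lay at a start and 13.1% were intergenic. The 8 were chosen for lying in or just upstream of a member, so these shares are not like for like. Of the 6 intronic summits, 2 lay in introns of DPCoAC and not of a member. Both start-proximal summits belonged to inner starts, that of a second Stat92E transcript and that of lncRNA:CR44478, and neither gene had a reproducible peak at its own first start. The nearest protein-coding start was that of the member for 5 of the 8. The GC content of the windows ranged between 24.8 and 53.5%, with a median of 32.2%, against 33.7% for all reproducible windows. The 2 Socs36E windows nearest its start had the highest values, 53.5 and 48.5%.

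The letters of the windows held few of the searched motifs. The 10 motifs were sought on both strands, each window was counted once per motif, and no match overlapped one of another motif in these windows. A STAT palindrome, TTCNNNGAA or the same TTC and GAA with 4 bases between them, was in none of the 8 windows, and 6.5% of all 4524 reproducible windows held either spacing (3.25% and 3.34% for each). The N box CACNAG was in 1 of 8, the Socs36E peak at 1094 bp, against 10.5% of all windows. The same window held GTGGGAA, against 1.06% of all windows. GAGAG was in 1 of 8, the Socs36E peak at 1642 bp, against 9.86%. CACGTG (0.818% of all windows), CACGCG (1.17%), CAGCTG (4.0%), GTGAGAA (1.39%) and TATCGATA (1.95%) were in none of the 8. An absent match says only that these letters are not in that window.

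STAT palindromes were unevenly spread over the 7 stretches. Socs36E had 22 matches with the spacer of 3 bases and 18 with that of 4 in its 18743 bp, and Stat92E had 11 and 6 in 21989 bp. The receptor gene dome had 5 and 14 in 12458 bp, upd3 had 4 and 6, hop had 3 and 2, upd2 had 2 and 2, and upd1 had 1 and 2. Per kb this was 1.17 and 0.96 for Socs36E, 0.401 and 1.12 for dome and 0.5 and 0.273 for Stat92E, against 0.32 and 0.329 over the 6 arms. The rates of upd1, upd2 and hop were below those of the arms for both spacers, at 0.112 to 0.262 per kb. Reproducible peaks covered 5.69% of the Socs36E stretch and 5.96% of the Stat92E stretch. Of the matches at these 2 genes 1 lay in a reproducible peak. It was a match with the spacer of 4 bases that starts at 2L:18150606 in the Socs36E peak at 1642 bp, outside its central window. The stretches of the other members held no reproducible peak, so no match there could lie in one.

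Other genes that act on or downstream of the pathway were examined from a list of 19, 18 protein-coding and the microRNA gene mir-279. Of the 18, 13 (72.2%) had a reproducible peak by the same rule, against 37.0% of all protein-coding genes and beside 2 of the 7 core genes. A peak of q below 0.05 in all 3 replicates lay at 12 of the 18, against 38.1% of all protein-coding genes. The list was written with earlier results of these data known, and its genes were longer than most, with a median body plus 5 kb of 11340 bp against 7166 bp over all protein-coding genes. Its share was not tested. The highest peak was at mir-279, a microRNA known to limit JAK/STAT signalling in border cells, at -1138 bp with rank 45 of 4524 and relative signal 6.15 ± 1.11 (n = 3). It ranked 64, 25 and 74 in replicates 1 to 3. The nearest annotated start was that of the noncoding gene lncRNA:CR31044, at -115 bp.

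Among genes known as pathway targets, zfh1, a zinc finger repressor gene, had 2 peaks with the best at rank 225 (replicate ranks 428, 152 and 228). The stem cell maintenance gene chinmo had 3 with the best at rank 1547, at which the replicates differed (1665, 8571 and 949). The best peaks of vir-1 and TotM, at ranks 3293 and 4088, were closer to the starts of Trm1 and Ncoa6. No reproducible peak lay at slbo or TotA. Among regulators, ken, whose product represses a subset of Stat92E targets, had 3 peaks (best rank 653), and apt, a regulator of border cell fate, had 8 (best rank 676). The cofactor gene bon had 4 (best rank 1283) and the chromatin remodelling gene E(bx) 1 at its promoter (rank 2661).

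Of the inhibitors, the phosphatase gene Ptp61F had 7 peaks in a stretch of 137765 bp, the best at rank 1184 and closest to SA2. The Socs relatives of Socs36E each had 1 promoter peak of lower rank, Socs16D at -21 bp from a start (rank 3766) and Socs44A at -126 bp (rank 4012, with rank 8355 in replicate 1). Neither et, which encodes a receptor-like antagonist next to dome, nor Su(var)2-10, the PIAS gene, had one. Of the trafficking and SUMO pathway genes, asrij had a promoter peak at rank 3909, Stam a peak at rank 4015 in the promoter of Dnz1, and lwr none.

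The Socs36E best peak was matched against those of 4990 protein-coding genes by the largest difference in log10 rank over the 3 replicates. The nearest was Tis11, an RNA-binding protein gene, with a largest difference of 0.0261 and ranks of 1167, 532 and 1013. It was followed at 0.0334 by sn, the fascin gene singed, and sws, a neuropathy target esterase gene, which share 1 peak with ranks of 1271, 541 and 1107. This likeness rests on 3 ranks and is a description of peak strength only.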

How the data were processed

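Each replicate's peak list, a list called on the 3 replicates pooled and the authors' reproducible set (optimal peaks by irreproducible discovery rate, IDR) were used in dm6; the dm3 lists were not used. Per the deposited files, each peak has a signal value, a q-value on the −log10 scale and a summit offset. Signal was not normalised between lists as deposited, so it was compared as a rank within a list or divided by the median signal of that replicate's peaks that held reproducible summits (69.3, 69.4 and 61.3). The IDR cutoff, the peak caller, the aligner and tool versions were not given in the sources used here. The files give no read counts, so depth is unknown.

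Summits (1-based) were assigned to Ensembl release 115 genes on 6 arms when they lay in the body or 5 kb upstream. A peak counted in a replicate when the listed peak held the pooled summit. Promoter means within 500 bp of a start. Windows of 50 bases on each side of a summit were read from the RefSeq dm6 genome. Counting, finding of the genes with a listed peak, and motif search were checked on simulated data, while ranking was not. Python 3.11.15, numpy 2.4.6, pandas 2.3.3 and matplotlib 3.10.9 were used. With 1 group there was no comparison between conditions and no test. The 3 replicates are biological, per the labels.

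The members, the lists and the measures were chosen with earlier results of these data known. Named were the 7 genes, the list of 19, genes nearest to or sharing a summit with a member, and the 3 genes closest in rank to the highest member peak. Alternatives tried were other upstream lengths, stricter and looser peak sets, wider windows and leaving out each replicate.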

Additional observations from a re-analysis of the deposited data

How the results depend on the processing

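The count of 2 genes with a reproducible peak stayed at 2 with 1 kb upstream, with the body alone and with any overlapping base, and was 3 with 10 kb upstream. It was also 2 among peaks above the median signal of the set, and among counted summits whose nearest protein-coding start was the gene's own. These last 2 settings kept only some of the 8 peaks, so they could not add a gene. The reproducible peaks past upd2 and between upd3 and upd1, outside the counted stretches, had upd2 and upd1 as nearest protein-coding starts. The count was 4 in the pooled list at q below 0.05, where dome and hop were added. Leaving out a replicate did not remake the reproducible set. Instead, pooled peaks with q below 0.05 in both remaining replicates were counted, and the pooled list still held the replicate left out. Genes with such a peak numbered 2 to 4, with 4 without replicate 1. The 8 peaks became 6 with the body alone or 1 kb upstream, which left out the 2 Stat92E peaks in DPCoAC introns. There were 11 with 10 kb upstream, 14 in the pooled list, 3 above the median signal and 5 by the nearest start. Pooled peaks that passed in both remaining replicates numbered 7 to 9, while 6 of the 8 reproducible peaks passed in all 3 replicates. Genes with a peak of q below 0.05 in all 3 replicates numbered 2, against 6 when any listed peak counted and 2 to 4 when a replicate was left out, again 4 without replicate 1. In whole peaks the STAT palindrome with a spacer of 4 bases was in 1 of 8 (0 in the windows), against 9.37% of all reproducible peaks, and GAGAG in 3 (1 in the windows), against 34.8%. CAGCTG was in 1 of 8 in whole peaks, against 16.2%, and in windows of 100 bases on each side, against 9.48% (0 in the windows of 50). No paired analysis was possible because there was 1 group and no test. Unknown depth limits what a missing peak shows.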
